A study of Mus musculus with 24 samples.

Results

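Endothelin and nitric oxide-cGMP genes were examined in mouse left ventricle after infusion of ANG II or saline. The group comprised the 9 genes Edn1, Ednra, Ednrb, Ece1, Nos3, Ddah1, Ddah2, Prkg1 and Pde5a, which were chosen by symbol, and all 9 were among the 14912 genes listed for the series. RNA-seq of the left ventricle was analysed for 12 mice with ANG II-induced hypertension (the hypertensive-LVH group) and 12 control mice. All mice were male wild-type C57BL/6J. ANG II was given at 1500 ng/kg/min for 7 days through a subcutaneous osmotic mini-pump, the control mice received saline in the same way, and each heart was flushed with saline before the ventricle was taken. ANG II, angiotensin II, is a peptide hormone that constricts vessels, and its infusion is a model of hypertensive left ventricular hypertrophy. No age was given in the sources used here. The authors' methods describe the samples as biological replicates, and do not say that animals were pooled. The values describe whole ventricle, in which fewer cells of a type and less RNA per cell cannot be told apart.

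Endothelin-1 is a vasoconstrictor peptide made mainly by endothelial cells, cut from its precursor by an endothelin-converting enzyme and sensed by the A and B receptors, which couple to Gq. Nitric oxide opposes it: the endothelial synthase makes nitric oxide from arginine, soluble guanylyl cyclase answers with cGMP, and cGMP activates protein kinase G until phosphodiesterases break it down. Methylated arginines inhibit the synthase, and the enzyme DDAH1 hydrolyses them.

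Of these genes, the ligand Edn1, both receptors Ednra and Ednrb, and Ddah2 rose in the hypertensive-LVH group, by log2 fold changes of 0.41 to 0.66. Ece1, Nos3, Ddah1, Prkg1 and Pde5a did not pass the test. In all, 4 of the 9 genes had an adjusted p-value under 0.05, all 4 of them higher, where 33.5% of all 14026 genes tested passed, 20.9% as higher and 12.6% as lower. For none of the 9 genes were the 12 and 12 values fully separated, as they were for 0.756% of all genes. The median log2 fold change of the 9 genes was 0.27 and that of all genes tested was 0.05. With the additional criterion of an absolute log2 fold change over 0.5, 1 of the 9 genes, Edn1, was called, beside 4.52% of all genes as higher. Fold changes were fitted with limma on log2(FPKM + 1), a scale that understates changes of low genes, and p-values were adjusted over all genes tested.

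Unless stated otherwise, values are as deposited. The deposited FPKM (fragment counts scaled by transcript length and by the mapped fragments of the sample) had been adjusted by the authors in 4 sets, samples 1 to 3, 4 to 6, 7 to 9 and 10 to 12 of each group, which showed as exact ties between samples. Negative values occurred in 1201 genes but in none of the 9 examined here. Samples 4 to 6 stood apart. The summed FPKM of 8 fibroblast markers was 142 to 258 in control samples 4 to 6 and 1654 to 2639 in ANG II samples 4 to 6, while the other control samples ranged from 842 to 1017 and the other ANG II samples from 708 to 1906. Results are therefore also given without samples 4 to 6 of both groups, where 20.1% of all genes passed, 8.40% as higher. The sum of all FPKM per sample was 460715 to 515185 in the hypertensive-LVH group and 482319 to 567727 in the control group. The number of fragments per sample was not given, so the counting error of single values is unknown.

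The genes that rose are shown by the 250 bases before their RefSeq start sites (GRCm38.p6, each on the strand of its gene, 5′ to 3′), since their group means rose in the same comparison. The windows are chr13:42301226-42301475 (+) for Edn1, chr8:77724453-77724702 (-) for Ednra, chr14:103843702-103843951 (-) for Ednrb and chr17:35058785-35059034 (+) for Ddah2. None of these windows overlapped an annotated UTR of GENCODE vM21, while that of Ednrb lay inside the gene span of that annotation and the last bases of that of Ednra reached into it. Capitals would mark a match to an AP-1 motif (TGA and TCA with any 1 base between them), a GATA motif (AGATAA) or a hypoxia-response core (ACGTG) on either strand.
Edn1: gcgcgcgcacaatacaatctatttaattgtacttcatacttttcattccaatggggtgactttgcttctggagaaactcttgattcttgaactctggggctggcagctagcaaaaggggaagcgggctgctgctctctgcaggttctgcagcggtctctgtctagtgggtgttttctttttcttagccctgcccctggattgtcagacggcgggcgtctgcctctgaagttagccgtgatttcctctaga
Ednra: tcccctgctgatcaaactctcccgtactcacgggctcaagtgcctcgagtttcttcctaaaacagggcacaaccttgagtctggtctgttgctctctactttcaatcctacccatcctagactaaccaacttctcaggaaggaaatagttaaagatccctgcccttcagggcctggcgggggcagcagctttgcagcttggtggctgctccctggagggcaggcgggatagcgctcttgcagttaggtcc
Ednrb: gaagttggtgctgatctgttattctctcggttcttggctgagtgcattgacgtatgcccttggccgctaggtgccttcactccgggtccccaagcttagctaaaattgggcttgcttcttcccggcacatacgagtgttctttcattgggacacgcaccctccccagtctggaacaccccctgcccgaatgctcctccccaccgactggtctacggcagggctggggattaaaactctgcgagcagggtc
Ddah2: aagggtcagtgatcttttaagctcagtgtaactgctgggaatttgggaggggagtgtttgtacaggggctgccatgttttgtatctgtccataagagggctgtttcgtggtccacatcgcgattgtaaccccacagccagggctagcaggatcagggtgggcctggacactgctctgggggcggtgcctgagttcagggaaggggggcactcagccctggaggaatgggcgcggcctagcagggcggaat
The windows of these 4 genes held none of the 3 motifs, and sequence of these genes beyond the 250 bases was not examined. Among 32851 RefSeq windows of the same length, 6.75% held the AP-1 motif, 9.99% the GATA motif and 16.6% the hypoxia-response core. The Edn1 window had a GC content of 50.4% and 9 CpG dinucleotides, and the Ednra, Ednrb and Ddah2 windows had GC contents of 54.8%, 56.8% and 58.0% with 6, 11 and 7 CpG dinucleotides. RefSeq start sites were matched for 8 of the 9 genes, all but Nos3, with 12 windows in all. A GATA motif was found in 1 window of Prkg1 and the hypoxia-response core in 1 window of Ece1.

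Edn1 (chr13:42301476-42307990, + strand, GRCm38) encodes the precursor of endothelin-1. In the control group its FPKM ran from 1.45 (median 2.64) to 3.67, and in the hypertensive-LVH group from 3.18 (median 4.44) to 6.61. Every ANG II sample lay above the control median and 9 of the 12 lay above the highest control sample, so that the groups overlapped only slightly. The means were 4.56 ± 1.18 (SD, n = 12) and 2.51 ± 0.735 (SD, n = 12) FPKM, a log2 fold change of 0.66 (SE 0.12, adjusted p = 1.99e-04). The difference was positive in all 4 sets, as it was for 21.9% of all genes. It was 1.36 on the log2 scale in samples 4 to 6, against 0.26, 0.58 and 0.46 in samples 1 to 3, 7 to 9 and 10 to 12. Within sets, the 3 ANG II values lay above the 3 control values in all but samples 1 to 3, a separation shown by 6.97%, 38.5%, 10.2% and 10.0% of all genes in the 4 sets in order. The difference between sets passed the interaction test (adjusted p = 0.0468), as did 7.49% of all genes. In samples 4 to 6 the 3 control values lay between 1.45 and 1.67 FPKM, below those of the other 9 control samples. Without samples 4 to 6 the log2 fold change of Edn1 was 0.43 (SE 0.11, adjusted p = 0.00865).

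**Figure D1:**
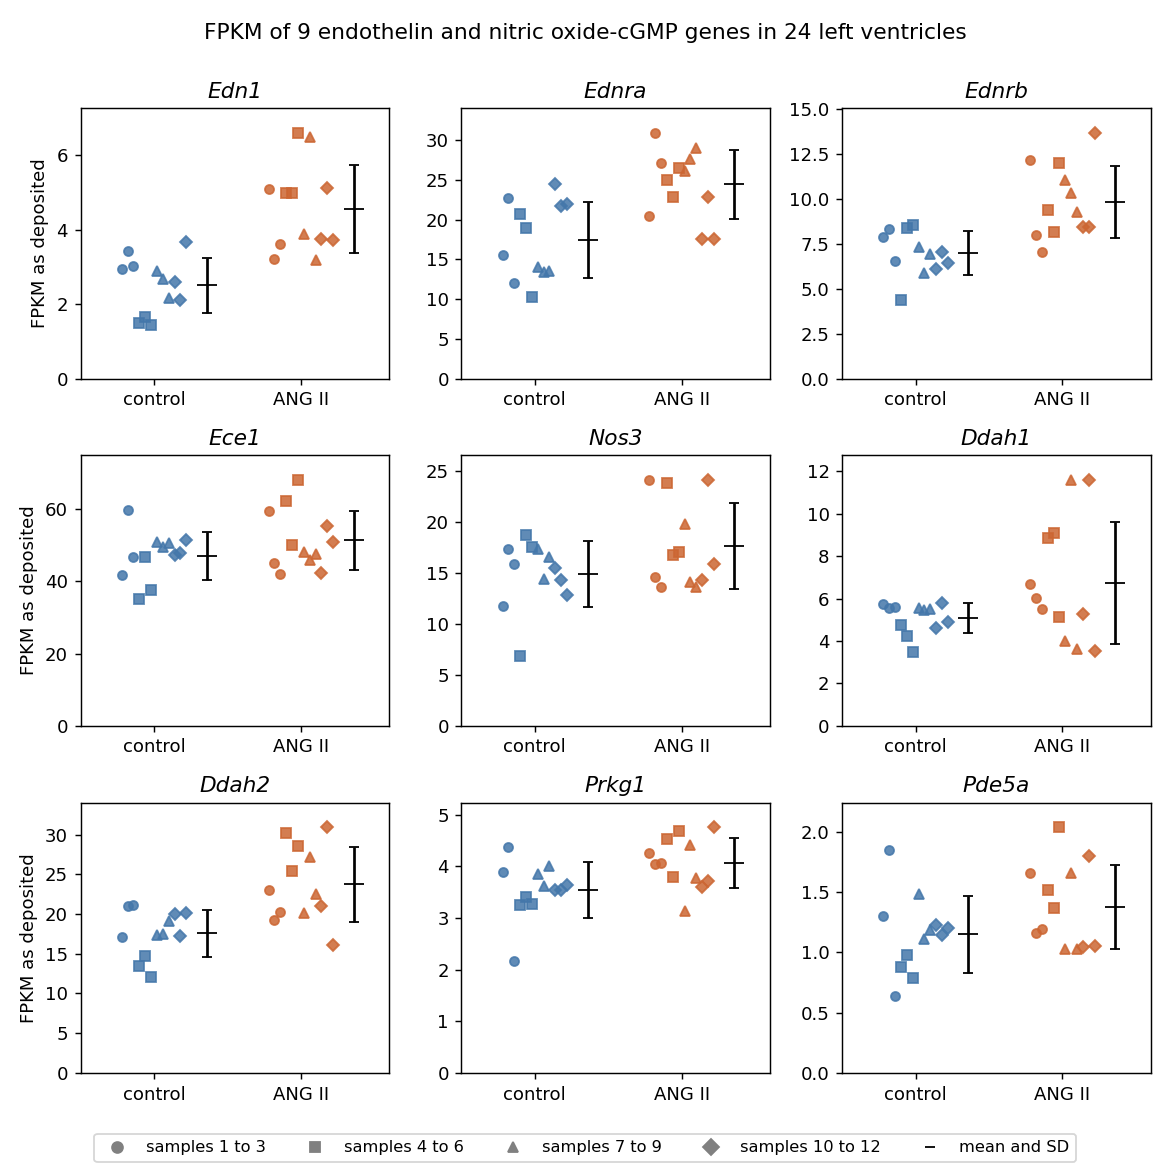
FPKM as deposited (vertical axes, from 0) of the 9 genes in the control and ANG II samples, 1 point per sample, with symbols for the 4 sets and the mean and SD of each group of 12 at the right. For Edn1, 9 of the 12 ANG II samples lie above the highest control sample, whereas for Ece1 only 2 do.

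Ednra (chr8:77663031-77724464, - strand) encodes the A receptor, which on smooth muscle mediates constriction. Its level ran from 10.3 (median 17.2) to 24.5 FPKM in the control group and from 17.5 (median 25.5) to 30.9 FPKM in the hypertensive-LVH group. Again all 12 ANG II samples exceeded the control median, but the groups overlapped more, with 7 ANG II samples above the highest control. The mean rose from 17.5 ± 4.82 to 24.4 ± 4.30 FPKM (SD, n = 12 each), a log2 fold change of 0.49 (SE 0.13, adjusted p = 0.00502). The sets did not share 1 direction: the log2 difference was 0.63, 0.60 and 0.96 in samples 1 to 3, 4 to 6 and 7 to 9, and -0.23 in samples 10 to 12. In that last set the control samples averaged 22.7 ± 1.56 FPKM (SD, n = 3) and the ANG II samples 19.3 ± 3.10 FPKM (SD, n = 3). The interaction test did not pass (adjusted p = 0.0543). Leaving out samples 4 to 6 gave 0.45 (SE 0.15, adjusted p = 0.0342), and the call was lost without samples 7 to 9 (log2 fold change 0.33, adjusted p = 0.103).

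Ednrb (chr14:103814625-103844402, - strand) encodes the B receptor, which endothelial cells carry and which also clears endothelin. Control samples ranged from 4.39 (median 7.00) to 8.53 FPKM and ANG II samples from 7.02 (median 9.29) to 13.7 FPKM. The lowest ANG II sample was still above the control median, and 7 ANG II samples were above all controls. With means of 9.82 ± 2.02 and 6.97 ± 1.21 FPKM (SD, n = 12 each), the log2 fold change was 0.44 (SE 0.098, adjusted p = 0.00164). The sets gave 0.21, 0.45, 0.54 and 0.54, all higher, with no difference between sets detected (interaction adjusted p = 0.764). Samples 4 to 6 had little weight in this result, which was 0.43 (SE 0.10, adjusted p = 0.00546) without them.

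The ratio of Ednra to Ednrb was computed in each sample. It ran from 1.20 (median 2.28) to 4.71 in the control group and from 1.28 (median 2.67) to 3.86 in the hypertensive-LVH group, and the ranges overlapped almost entirely. On the log2(FPKM + 1) scale the groups differed by 0.05 (SE 0.19, two-sided permutation test with 100000 resamples, p = 0.778, adjusted p = 0.778 over 2 ratios). Within sets the difference ran from 0.43 in samples 1 to 3 to -0.78 in samples 10 to 12.

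Ece1 (chr4:137862237-137965229, + strand), the converting enzyme, was the most abundant of the 9 genes. Control samples ranged from 35.1 (median 47.6) to 59.9 FPKM and ANG II samples from 42.1 (median 49.0) to 68.1 FPKM. The groups overlapped almost throughout, with 7 ANG II samples above the control median and 5 below it. The means were 51.4 ± 8.23 and 47.1 ± 6.60 FPKM (SD, n = 12 each), with a log2 fold change of 0.12 (SE 0.083, adjusted p = 0.263). In samples 4 to 6 the log2 difference was 0.58, with no overlap between 3 and 3 values, and in the other sets it was -0.02, -0.09 and 0.01. The values of samples 7 to 9 did not overlap either, in the opposite direction. Their difference was -3.18 FPKM as deposited and 0.983 FPKM before the inferred adjustment. Without samples 4 to 6 the sign of the log2 fold change turned, to -0.03 (SE 0.070, adjusted p = 0.770).

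**Figure D2:**
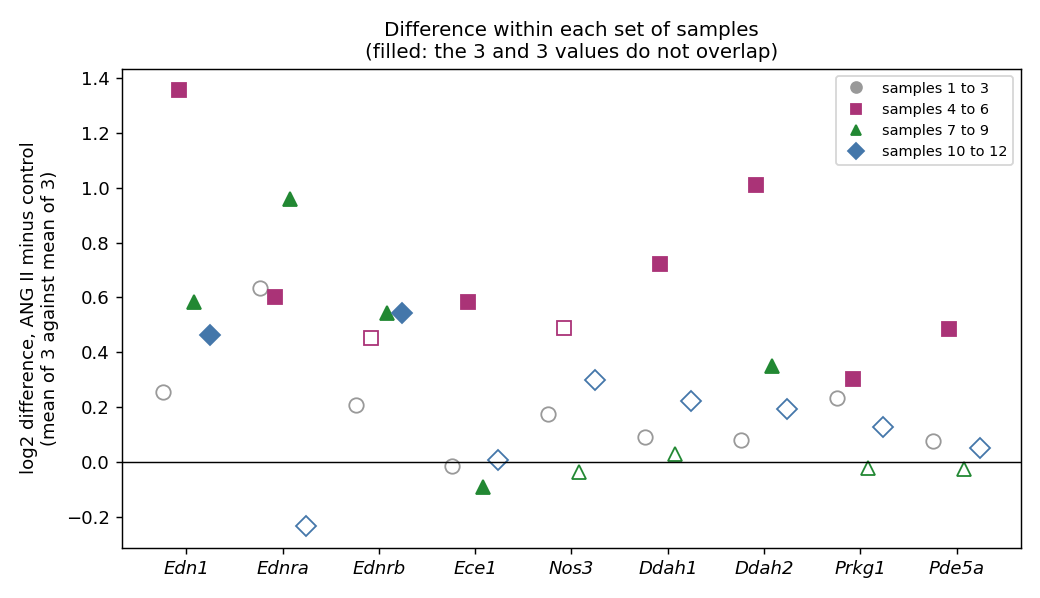
Log2 difference between the mean of 3 ANG II and the mean of 3 control samples (vertical axis) for each gene in each of the 4 sets, with filled symbols where the 3 and 3 values do not overlap. Samples 4 to 6 give the largest value for 7 of the 9 genes, the exceptions being Ednra and Ednrb.

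Nos3 (chr5:24364810-24384474, + strand) encodes the endothelial nitric oxide synthase. Its FPKM was 6.85 (lowest), 15.6 (median) and 18.7 (highest) in the control group and 13.6, 16.3 and 24.1 in the hypertensive-LVH group. Most values fell in a shared range, while 4 ANG II samples lay above all controls and 3 control samples below all ANG II samples. The mean was 17.6 ± 4.21 against 14.9 ± 3.25 FPKM (SD, n = 12 each), and the log2 fold change was 0.23 (SE 0.13, adjusted p = 0.167). It was 0.15 (SE 0.12, adjusted p = 0.393) without samples 4 to 6. Nos3 overlaps Atg9b on the opposite strand, and whether counting used the strand was not given in the sources used here. Atg9b was low, at 0.547 FPKM in the hypertensive-LVH group and 0.597 FPKM in the control group (adjusted p = 0.540).

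Ddah1 and Ddah2 are named for dimethylarginine dimethylaminohydrolase, and the product of Ddah1 removes the endogenous inhibitor of nitric oxide synthases. Enzyme activity was not measured here. Ddah2 (chr17:35059035-35062095, + strand) ran from 12.1 (median 17.4) to 21.1 FPKM in the control group and from 16.1 (median 22.8) to 31.0 FPKM in the hypertensive-LVH group. In the latter, 11 samples lay above the control median and 7 above the control maximum. Its mean rose from 17.6 ± 2.92 to 23.7 ± 4.71 FPKM (SD, n = 12 each), a log2 fold change of 0.41 (SE 0.10, adjusted p = 0.00348). As deposited, all 4 sets were higher, but the log2 difference was 1.01 in samples 4 to 6 and 0.08, 0.35 and 0.19 in the others, a difference between sets that passed the interaction test (adjusted p = 0.0404). Samples 1 to 3 differed by 1.12 FPKM as deposited and by -0.297 FPKM before the inferred adjustment. Without samples 4 to 6 the log2 fold change was 0.21 (SE 0.092) and the call was lost (adjusted p = 0.121). In that setting 3 of the 9 genes, Edn1, Ednra and Ednrb, remained called, where 20.1% of all genes passed, 8.40% as higher.

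Ddah1 (chr3:145758675-145894277, + strand) varied more than any other of the 9 genes in the hypertensive-LVH group. Control samples were close together, from 3.50 (median 5.48) to 5.78 FPKM, and ANG II samples spread from 3.51 (median 5.77) to 11.6 FPKM. There were 6 ANG II samples above the highest control, while 5 lay below the control median. The coefficient of variation was 42.8% in the hypertensive-LVH group and 13.9% in the control group. Samples 8 and 11 of the hypertensive-LVH group both reached 11.6 FPKM, and the other ANG II samples of their sets lay between 3.51 and 5.26 FPKM. The means were 6.74 ± 2.88 and 5.10 ± 0.711 FPKM (SD, n = 12 each), with a log2 fold change of 0.27 (SE 0.15, adjusted p = 0.174), or 0.11 (SE 0.17, adjusted p = 0.682) without samples 4 to 6.

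The Ddah2 to Ddah1 ratio had a median of 3.46 in the control group (2.83 to 4.33) and 3.56 in the hypertensive-LVH group (2.34 to 6.21). The wider range in the hypertensive-LVH group went in both directions. The mean log2 ratio differed by 0.14 (SE 0.12, two-sided permutation test, p = 0.241, adjusted p = 0.482 over 2 ratios).

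Prkg1 (chr19:30564489-31765033, - strand) encodes the cGMP-dependent kinase of smooth muscle and heart. The control group ran from 2.16 (median 3.58) to 4.38 FPKM and the hypertensive-LVH group from 3.14 (median 4.06) to 4.76 FPKM. Although 11 ANG II samples exceeded the control median, only 4 exceeded the control maximum. The difference was small, 4.06 ± 0.485 against 3.55 ± 0.542 FPKM (SD, n = 12 each), with a log2 fold change of 0.16 (SE 0.069, adjusted p = 0.0759). It passed when ANG II replicate 7 (adjusted p = 0.0359) or control replicate 2 (adjusted p = 0.0396) was left out. Without samples 4 to 6 it was 0.11 (SE 0.085, adjusted p = 0.375).

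Pde5a (chr3:122728947-122859374, + strand), the cGMP-specific phosphodiesterase that sildenafil inhibits, was the lowest of the 9 genes. Control values ran from 0.639 (median 1.17) to 1.85 FPKM and ANG II values from 1.03 (median 1.28) to 2.04 FPKM. Only 1 ANG II sample was above the highest control sample, and 5 were below the control median. Means of 1.38 ± 0.349 and 1.15 ± 0.321 FPKM (SD, n = 12 each) gave a log2 fold change of 0.15 (SE 0.083, adjusted p = 0.175). This value was 0.03 (SE 0.092, adjusted p = 0.825) without samples 4 to 6.

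**Figure D3:**
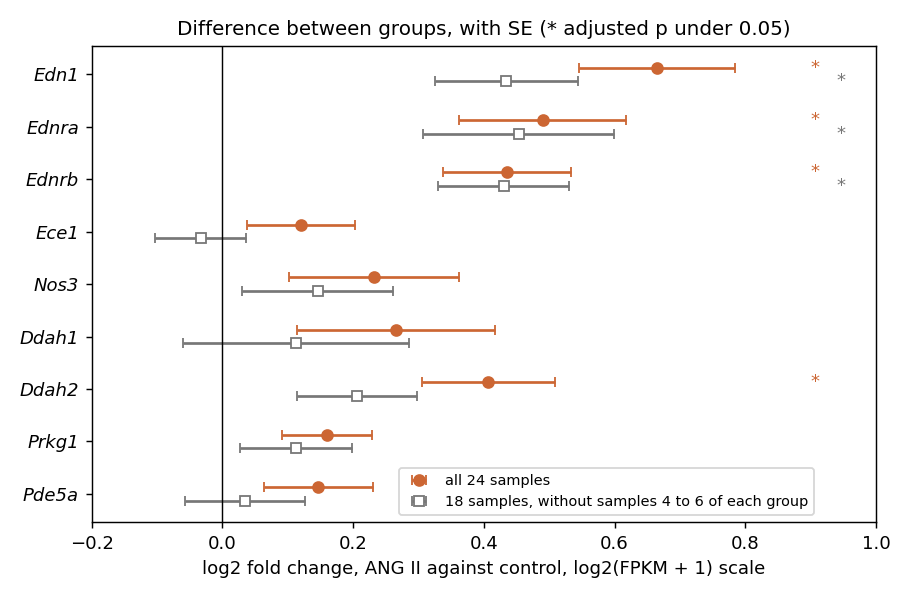
Log2 fold change of each gene between the hypertensive-LVH and control groups (horizontal axis, bars are SE) with all 24 samples and with the 18 samples left without samples 4 to 6, with asterisks at an adjusted p under 0.05. Edn1, Ednra and Ednrb have an asterisk in both settings and Ddah2 only with all samples.

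The order of the levels in the control group, per length of transcript, was Ece1, Ddah2, Ednra, Nos3, Ednrb, Ddah1, Prkg1, Edn1 and Pde5a. Ddah2 and Ednra could not be ordered, since Ddah2 was above Ednra in 6 of 12 control samples, and Ednra was above Nos3 in only 7. The other neighbours kept their order in 10 to 12 of the 12 control samples. In the hypertensive-LVH group Edn1 and Prkg1 changed places, with Prkg1 above Edn1 in 4 of 12 samples, against 10 of 12 in the control group. Ednra was above Nos3 in 10 of 12 ANG II samples.

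Differences within each set before the inferred adjustment were recovered from the spacing of the values for all 9 genes. Averaged over the sets, they had the same sign as the deposited differences for each of the 9 genes. In single sets the sign differed for Ddah2 in samples 1 to 3, for Ece1, Nos3 and Prkg1 in samples 7 to 9, and for Pde5a in both of these sets. Exact permutation of labels within sets, on FPKM without a logarithm, was used for both, and 27.4% of all genes passed as deposited and 28.4% before the adjustment. Edn1, Ednrb and Ddah2 passed in both, with mean differences before the adjustment of 2.23, 2.67 and 5.62 FPKM (exact permutation, adjusted p = 0.00263, 0.018 and 0.0404). Ednra differed by 6.98 FPKM as deposited (exact permutation, adjusted p = 0.02) and by 6.26 FPKM before the adjustment, where it did not pass (exact permutation, adjusted p = 0.0542). Ddah1 and Prkg1, in contrast, passed only before the adjustment. The difference of Ddah1 was 2.20 FPKM before it and 1.64 FPKM as deposited (exact permutation, adjusted p = 0.0193 and 0.184). For Prkg1 the values were 0.719 and 0.518 FPKM (exact permutation, adjusted p = 0.0124 and 0.0843). Ece1, Nos3 and Pde5a passed in neither.

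Endothelial cells carry several of these genes, and markers of cell types were therefore set beside them. Of 11 endothelial markers, 2 were higher and 1 lower, from Pecam1 (log2 fold change 0.37, adjusted p = 7.77e-04) to Kdr (-0.23, adjusted p = 0.0309), with a median of 0.02. Their summed FPKM was 498 to 701 in the hypertensive-LVH group and 505 to 601 in the control group. Relative to the mean of the endothelial markers in the same sample, a comparison added after the data were seen, the groups differed by 0.62 for Edn1, 0.45 for Ednra, 0.40 for Ednrb and 0.37 for Ddah2 on the log2 scale. These differences were 0.46, 0.48, 0.46 and 0.23 without samples 4 to 6. Each equals the log2 fold change of the gene less the mean change of the markers, which is common to all genes.

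Other markers moved with the groups. Of 10 markers of smooth muscle cells and pericytes, 3 were higher and 2 lower, from Tagln (1.32) to Kcnj8 (-0.58), with 0 higher (limma, also at an unadjusted p under 0.05) and 2 lower without samples 4 to 6, and their sum ran from 353 to 536 FPKM under ANG II and from 283 to 482 FPKM in the control group. Relative to their mean, Ednra differed by 0.25 and Ednrb by 0.20, and by 0.50 and 0.48 without samples 4 to 6. Relative to the mean of the fibroblast markers, also added after the data were seen, the sign turned for each of the 9 genes. The values were -0.60 for Edn1, -0.78 for Ednra, -0.83 for Ednrb and -0.86 for Ddah2, and reached -1.15 for Ece1. Without samples 4 to 6 these values were 0.21, 0.23, 0.20, -0.02 and -0.26. Of 8 fibroblast markers, 4 were higher (Col1a1 2.77, Pdgfra 0.20 and not past the test), and 1 was without samples 4 to 6. All 8 macrophage markers were higher (Cd68 0.92, Adgre1 0.35), with sums of 237 to 701 against 172 to 378 FPKM, and 0 passed without samples 4 to 6 (3 at an unadjusted p under 0.05, limma). All 5 red cell genes were higher (Hba-a2 3.39, Alas2 1.27), with sums of 779 to 6443 against 92.2 to 2949 FPKM. None of the markers had a mean of 0. The part of these cells in the results for the 9 genes was not tested. The tissue label was checked against 9 ventricular cardiomyocyte genes, whose summed FPKM was 27661 to 39812 in the hypertensive-LVH group and 36091 to 46135 in the control group, with 1 higher (Mybpc3 0.21) and 3 lower (Tnni3 -0.63). The 3 atrial markers ranged from 0 to 2303 FPKM and from 0 to 3153 FPKM, and 0 passed, with or without adjustment in limma or by the rank test (Myl7 1.03, Sln 0.91). The extraction notes name CRC cells as the source of RNA, which the tissue label does not.

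Another 55 genes of these pathways were listed, of which 48 were tested. Of these, 8 were higher and 7 lower, or 31.3% in either direction, with a median log2 fold change of 0.05. Without samples 4 to 6 the counts were 2 higher and 8 lower. Edn2, Ecel1, Agxt2, Gucy1a1 and Gucy1b1 were not analysed here, and Nos1 and Arg2 had a mean FPKM under 0.1 and were not tested.

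Among endothelin ligands and processing enzymes, Edn3, a ligand that prefers the B receptor, rose from 0.820 ± 0.429 to 2.04 ± 0.778 FPKM (SD, n = 12 each, log2 fold change 0.73, adjusted p = 2.97e-04). Its deposited values were higher in all 4 sets, but in samples 1 to 3 the difference of 0.210 FPKM was -0.040 FPKM before the adjustment. The log2 fold change was 0.82 without samples 4 to 6 (adjusted p = 0.00212). Ece2 did not pass (-0.06, adjusted p = 0.769). Of 7 genes of Gq signaling, 1 passed in limma, Gna11, a Gq family alpha subunit, which was lower (-0.11, adjusted p = 0.0484). It did not pass by the Wilcoxon test or without samples 4 to 6 (adjusted p = 0.067).

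Tetrahydrobiopterin is the cofactor without which nitric oxide synthases cannot make nitric oxide. Of 6 genes for its supply or the control of it, 4 passed as lower and 1 as higher, where 12.6% of all genes tested passed as lower. The falls were those of Gchfr, the feedback regulator of GTP cyclohydrolase (-0.78, adjusted p = 9.55e-04), Spr, sepiapterin reductase (-0.30, adjusted p = 6.15e-04), Qdpr, which recycles the cofactor (-0.30, adjusted p = 2.7e-04), and Pts, which acts between the cyclohydrolase and Spr (-0.28, adjusted p = 8.64e-04). Each of these 4 genes was lower in all 4 sets and still passed without samples 4 to 6. Gchfr went from 3.63 ± 1.08 to 1.77 ± 0.940 FPKM (SD, n = 12 each). Gch1, the rate-limiting enzyme, did not pass (-0.04, adjusted p = 0.602).

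Among synthases and their partners, Nostrin, which binds endothelial synthase, rose by 0.23 (adjusted p = 0.0218) but not without samples 4 to 6 (adjusted p = 0.146). Nos2 (-0.22, adjusted p = 0.218) and Cav1 (0.17, adjusted p = 0.103) did not pass. Of 7 tested genes of arginine and methylarginine metabolism, 2 rose, which were Ass1 (0.72, adjusted p = 0.00473) and Asl (0.34, adjusted p = 0.00946), the enzymes that regenerate arginine from citrulline. Neither passed without samples 4 to 6 (0.33 and 0.18, adjusted p = 0.123 and 0.191), whereas Prmt3, a protein arginine methyltransferase, passed as lower there (-0.15, adjusted p = 0.0482) but not with all samples (adjusted p = 0.131). Prmt1, which methylates arginine in proteins, did not pass (-0.07, adjusted p = 0.424).

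Among the guanylyl cyclases, which make cGMP, 0 of 3 tested genes passed in limma, before or after adjustment, or by the Wilcoxon test. Gucy1a1 and Gucy1b1, which encode subunits of soluble guanylyl cyclase, were not among those tested. Of 10 phosphodiesterases and exporters, Pde1b rose (0.27, adjusted p = 0.0301) and Pde2a fell (-0.26, adjusted p = 0.00732), and Pde2a but not Pde1b passed in the same direction without samples 4 to 6 (adjusted p = 0.00408 and 0.446). Pde1c passed as higher without these samples (0.33, adjusted p = 0.00575) but not with all samples (0.18, adjusted p = 0.112). Among 7 kinases and targets, Vasp (0.30, adjusted p = 0.0104) and Ppp1r12a (0.21, adjusted p = 0.0136) rose, and Pln, the phospholamban gene of cardiomyocytes, fell (-0.32, adjusted p = 0.00533). Mrvi1, the older symbol of Irag1, did not pass (-0.11, adjusted p = 0.508), though it was lower without samples 4 to 6 (-0.36, adjusted p = 0.0265). Vasp and Ppp1r12a did not pass in that setting (adjusted p = 0.175 and 0.0696).

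**Figure D4:**
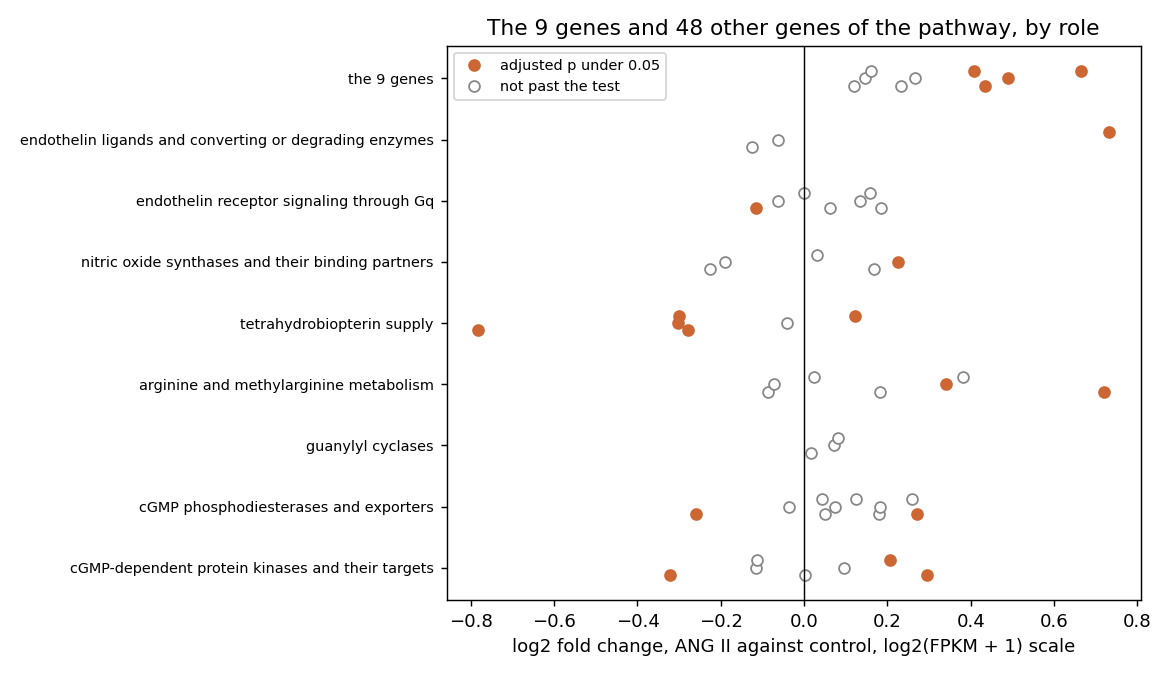
Log2 fold change between groups (horizontal axis) of the 9 genes and of the 48 other tested genes of the pathway, 1 point per gene, in rows by role, filled at an adjusted p under 0.05. All filled points of the 9 genes lie to the right of 0, and 4 filled points of tetrahydrobiopterin supply lie to the left.

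Correlations over the 24 samples, after the mean of each group in each set was removed, describe which genes varied alike. The genes compared were measured in the same libraries, and values appeared to have been adjusted in the same sets of samples. Between pairs of the 9 genes, r ran from -0.33 for Ednra with Ednrb to 0.69 for Ddah1 with Ddah2. Prkg1 with Pde5a had 0.68 and Edn1 with Pde5a 0.66. Among 11457 genes averaging 1 FPKM or more, those most like each member were Serping1 for Edn1 (0.88), Phf12 for Ednra (0.88), Ell for Ednrb (0.89) and Ahsg for Ece1 (0.96). For the others they were Thbd for Nos3 (0.91), Sprr2a3 for Ddah1 (0.93), Ctnnb1 for Ddah2 (0.93), Sltm for Prkg1 (0.96) and Mapre1 for Pde5a (0.95). Each is the highest of 11457 correlations, and how high such a maximum runs by selection alone was not tested.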

How the data were processed

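The authors sequenced oligo(dT)-selected RNA of left ventricles (paired-end), of which 24 were analysed here. The submitters' processing notes name Bowtie2, HISAT and RSEM, and the genome build, annotation and strand setting were not given in the sources used here. The authors deposited 1 FPKM value per gene and sample, and the study's methods count 16 samples per group, of which 12 were analysed here. The deposited values were handled as a score, since 2741 (0.766%) lay below 0. Each pair of samples of a group shared identical values in 215 to 541 genes within a set, and in 0 between sets. These ties were read as an adjustment in 4 sets, for which a shift, a scale and a group term were assumed. It did not show in 278 genes, whose values were whole hundredths. The methods name no such step. Its spacing gave differences within the sets before the adjustment, in steps of 0.01 FPKM, for 13779 of the 14026 tested genes (98.2%).

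Negative values were set to 0, and genes averaging 0.1 FPKM or more were tested on log2(FPKM + 1) with limma 3.58.1 in R 4.3.3 (intensity trend, Benjamini-Hochberg adjustment over all genes tested, threshold 0.05). The interaction of group and set was tested with limma's F-test. Exact permutation within sets used all 160000 relabelings, and ratios used 100000 resamples in scipy 1.17.1 (Python 3.11.15). Tests were two-sided, and the limma fit, the exact permutation and the recovery were tested on simulated data. The recovery assumed a shift and a scale for each set, with a separate term for the group difference. Its simulated data had the same form, and the values given as before the adjustment rest on this model. Tests of the deposited values take no account of such a group term.

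The 9 genes, the pathway list and the marker lists were chosen with earlier results of these data known. Of the other pathway genes, 12 set by name (Edn2, Edn3, Ece2, Nos1, Nos2, Gucy1a1, Gucy1b1, Gch1, Prmt1, Cav1, Vasp and Irag1) and the 5 largest rises and 5 largest falls past the test are named by rule. Nostrin, Ppp1r12a, Pde2a, Pde1c, Prmt3 and Gna11 are named beyond it, after their values were seen, where they account for a count, and 1 gene is not reported here. Of each marker list the genes with the highest and lowest fold change are named. Positions are from GENCODE vM21 (GRCm38), since the files hold gene symbols alone, and promoter sequences are from RefSeq. As alternatives, 0.1 was added in place of 1, the filter was dropped or raised to a mean of 1, samples were scaled by median ratios or quantiles, and the trend was left out. The others were a rank test (Wilcoxon), the set as a term, labels exchanged within sets, leaving out each set or each sample, a fold change threshold and the replicate number as a block.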

Additional observations from a re-analysis of the deposited data

Results flagged for a closer look

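The effect of ANG II on Edn1 differed between the 4 sets of samples, by limma's interaction test over all genes (adjusted p = 0.0468). Within sets the log2 difference was 1.36 in samples 4 to 6 and between 0.26 and 0.58 in the others. The same held for Ddah2 (adjusted p = 0.0404), with 1.01 in samples 4 to 6 and between 0.08 and 0.35 in the others. Neither passed when samples 4 to 6 were left out or after quantile normalization. In samples 4 to 6 the mean log2 level of the fibroblast markers differed between the groups by 4.39, against 0.14 to 0.30 in the other sets, and its part in these results was not tested.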

How the results depend on the processing

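Over 38 alternatives each, without the fold change threshold, Nos3, Ddah1 and Pde5a never passed on log2(FPKM + 1). Edn1 and Ednrb kept their direction and an adjusted p under 0.05 (adjusted p up to 0.00865 and 0.0263). Ednra was lost without samples 7 to 9 (adjusted p = 0.103) and Ddah2 without samples 4 to 6 (0.121). Values before the inferred adjustment were not among these alternatives. There Ednra did not pass, while Ddah1 and Prkg1 did (exact permutation, adjusted p = 0.0542, 0.0193 and 0.0124). Without samples 4 to 6, Ece1 reversed to a log2 fold change of -0.033. With the fold change threshold added, 1 of the 9 genes passed, Edn1, with 3 other pathway genes and 831 of all genes. Ednra, Ednrb and Ddah2 did not reach that threshold. Leaving out single samples gave 4 to 5 of the 9 genes, 12 to 18 pathway genes and 4038 to 5160 of all genes. Pathway genes past the threshold fell from 15 to 9 without samples 7 to 9. Of all genes, 4697 passed with every sample and 2810 without samples 4 to 6. The count of the 9 genes whose effect differed between sets was 2, and 0 with quantile normalization or without samples 4 to 6 (limma, 4 and 1 at an unadjusted p under 0.05, and 534 and 3 of all genes after adjustment). Leaving out single samples moved the Ednra to Ednrb difference between -0.031 (without control replicate 6) and 0.14, and the Ddah2 to Ddah1 difference between 0.09 and 0.19.

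The replicate numbers did not pair the samples: deviations of same-numbered samples correlated at -0.557 to -0.001, 0 of 12 pairs above 0.1, and 0 ANG II samples correlated best with their own number. With the replicate block 2824 of all genes, 10 pathway genes and 4 of the 9 genes passed, and the block left the ratio differences at 0.05 and 0.14 (exact sign permutation, p = 0.794 and 0.217). Fragment numbers are unknown, so small differences of low genes such as Pde5a cannot be set against counting error.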
